A study of Mus musculus with 4 samples.

Results

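Mx1, Mx2, Rsad2 and Cmpk2 are antiviral genes that interferon switches on, and they were followed here after delivery of mRNA to the mouse mammary carcinoma line 4T1. The 4 genes were taken by symbol from the 53647 genes of the deposited count tables, and all 4 were found by their Ensembl identifiers. Treated cells received uniSTING mRNA, which codes for a mimic of the adaptor STING, and Mock cells received mRNA for EGFP, a fluorescent protein. The labels give the cells of both groups as wild type, name a transfection agent and lipid nanoparticles as carriers without tying either to a library, and give no dose or time. There were 2 libraries per group, labelled as preparations 1 and 2 and named replicates 1 and 2 below. The alignment names in the file headers carry the letter L before the replicate number, and whether it marks a library or a sequencing lane is not stated; as lanes of a single library, n would be 1 per group. Separate cultures are not stated either, so p-values reflect the spread between libraries alone, which may be technical.

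The products of the 4 genes act at different steps. Mx1 and Mx2 encode GTPases of the dynamin family, which assemble into rings and block the polymerases or nucleocapsids of RNA viruses; mouse MX1 is found in the nucleus and MX2 in the cytoplasm. Most inbred laboratory strains carry disrupted copies of both Mx genes, and RefSeq lists Mx1 and Mx2 of the reference strain as transcribed pseudogenes, so that a transcript level here says nothing of a working protein; the alleles of 4T1 were not examined. Rsad2 encodes viperin, a radical SAM enzyme at the endoplasmic reticulum and lipid droplets that converts CTP into a chain-terminating nucleotide. Cmpk2, its neighbour, encodes a mitochondrial kinase that phosphorylates CMP and UMP. All of them are classic targets of the transcription factor complex ISGF3, which binds a DNA element called the interferon-stimulated response element, or ISRE.

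The 4 genes lie in 2 divergent pairs, with the 5' ends of each pair facing each other (GRCm39, coordinates of the deposited tables). Between Mx1 and Mx2, 3 other genes are annotated, with 9 counts over the 4 libraries, and between Rsad2 and Cmpk2 none. Mx1 (ENSMUSG00000000386) occupies chromosome 16, 97248235 to 97264107, on the minus strand, and Mx2 (ENSMUSG00000023341) lies 72.4 kb away at 97336508 to 97362100 on the plus strand. Rsad2 (ENSMUSG00000020641) occupies chromosome 12, 26492745 to 26506451, on the minus strand, and Cmpk2 (ENSMUSG00000020638) starts 12.8 kb away, at 26519203 to 26529836 on the plus strand. Annotated exons summed to between 3.61 kb (Mx2) and 4.34 kb (Rsad2). None of the 4 overlapped another gene of the annotation, so the lack of strand in the counting adds no reads of an overlapping gene. Mx1 and Mx2 are similar in sequence: their GENCODE transcripts share a longest identical run of 140 bases, and 3.86% of the distinct 50-base words of Mx1 and 4.38% of those of Mx2 occur in the other gene. Only uniquely mapped reads were counted, so reads from such stretches are lost and both levels are uncertain to that extent.

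The stretch before the start site is shown for Rsad2 and Cmpk2, the divergent pair for which the sequence table has entries, so that the ISRE letters can be read in place. The sequences are the 250 bases upstream of the RefSeq start (GRCm38.p6), read 5' to 3' on the gene's strand, from chr12:26456453-26456702 on the minus strand for Rsad2 and from chr12:26468965-26469214 on the plus strand for Cmpk2. Capitals mark a match to the ISRE core, GAAANNGAA, or to its reverse complement, TTCNNTTTC, where N is any base.
Rsad2: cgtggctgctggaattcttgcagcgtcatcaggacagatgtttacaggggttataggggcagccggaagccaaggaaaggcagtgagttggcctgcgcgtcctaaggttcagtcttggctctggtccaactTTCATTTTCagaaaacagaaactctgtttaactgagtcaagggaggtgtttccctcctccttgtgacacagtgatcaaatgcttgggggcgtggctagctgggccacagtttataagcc
Cmpk2: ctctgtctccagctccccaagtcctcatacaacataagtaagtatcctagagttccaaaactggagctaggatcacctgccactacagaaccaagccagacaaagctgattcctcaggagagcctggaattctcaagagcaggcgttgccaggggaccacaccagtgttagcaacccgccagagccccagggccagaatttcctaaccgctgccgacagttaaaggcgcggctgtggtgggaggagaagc

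Rsad2 held 1 match, 119 to 111 bases before the start, and Cmpk2 held no match in this window. Searched on both strands, the same core occurs in 7.13% of 32851 upstream windows of the same length, and in 23 of the 49 interferon-stimulated effector genes of a list described further on that have a window (46.9%). The GAS core, TTCNNNGAA, was found in neither window, against 7.02% of all windows. Entries for Mx1 and Mx2 were not in the sequence table. A match is a stretch of letters and not a measured binding site.

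The Rsad2 match is set beside those of Isg15, Ifit1 and Ifit3, other interferon-stimulated genes measured in the same cells, to show how the core and its flanks compare. Each line gives the match in capitals with 10 bases on either side, turned so that the core reads GAAANNGAA, from chr12:26456553-26456581 (Rsad2, plus strand), chr4:156200872-156200900 (Isg15, minus strand), chr19:34640795-34640823 (Ifit1, minus strand) and chr19:34583398-34583426 (Ifit3, minus strand), all GRCm38.p6. Isg15, Ifit1 and Ifit3 hold further matches that are not marked, some of them overlapping. Only 1 match of each is shown, so the lines do not give the full range of cores and flanks. Every gene shown holds a match. Of the interferon signalling genes Stat2, Irf7 and Irf9, the window of Stat2 held a match and those of Irf7 and Irf9 held none.
Rsad2: tctgttttctGAAAATGAAagttggacca
Isg15: gtaggaaaagGAAACCGAAacagaaaata
Ifit1: tcagcagtgaGAAACTGAAactgagactg
Ifit3: gaggaaagtaGAAACTGAAacagacttaa

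All 4 genes were higher in uniSTING than in Mock, and in each gene both uniSTING libraries lay above both Mock libraries. Such a separation was seen for 37.8% of the 12972 genes that passed the count filter (37.1% of genes with at least 20 counts). Of the members that could be tested, Mx2 rose 12.8-fold, Rsad2 4.04-fold and Cmpk2 2.42-fold. Each of these 3 members passed an adjusted p of 0.05, as 24.9% of all tested genes did upward (50.2% in either direction). Each was also at least 2-fold higher, and 2.00% of tested genes met both conditions. Mx1 had too few counts to be tested with the others.

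Mx1 was almost silent in Mock, with 1 count in replicate 1 and 0 in replicate 2. The uniSTING libraries held 17 and 10. In CPM, which are counts scaled to the library size with TMM factors, these are 0.0567 and 0 in Mock and 0.907 and 0.402 in uniSTING, or 0.0284 ± 0.0401 and 0.655 ± 0.358 on average (mean ± SD, n = 2). The 2 groups did not overlap, and the higher uniSTING level was 2.26 times the lower one. The summed counts, 1 against 27, gave a ratio of 24.6 with a 95% interval from counting error of 4.05 to 1007, which leaves the size of the rise poorly known. The 0 counts of Mock replicate 2 allow a level of up to 0.136 CPM (3 counts), which lies below both uniSTING values. By 95% counting intervals, Mock replicate 1 reached up to 0.316 CPM and uniSTING replicate 2 down to 0.193 CPM, so these intervals overlapped. That of uniSTING replicate 1 began at 0.529 CPM, above both Mock intervals. Without the count filter edgeR called the rise (log2 fold change 4.36, SE 1.04, adjusted p = 1.54e-04, with 15.7% of all genes called higher in that fit), but the call was not made without Mock replicate 2 (log2 fold change 3.36, adjusted p = 0.0658). DESeq2 fitted a log2 fold change of 4.66 (SE 1.76) and gave no adjusted p.

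Mx2 had the largest fold change of the tested members. Its counts were 4 in either Mock library, against 51 and 64 in the uniSTING libraries, which is 0.227 and 0.181 CPM against 2.72 and 2.57 CPM. Within a group the libraries lay close together, and the lower uniSTING value was 11.3 times the higher Mock value. The means were 0.204 ± 0.0325 and 2.65 ± 0.107 CPM (SD, n = 2), the fitted log2 fold change was 3.67 (SE 0.38, edgeR adjusted p = 1.51e-05), and the ratio of summed counts was 13.1 (95% counting interval 6.42 to 31.0). Among 12972 tested genes this was the fold change of rank 8; 3 of the 7 genes ranked above it had no count in Mock, so their fitted values are no measure of size. The Mx2 level in Mock per kb of exon lay among the lowest 0.532% of tested genes, and that in uniSTING among the lowest 14.2%. Its counts in Mock lay below the minimum of the count filter, so Mx2 was tested through its uniSTING counts. Genes as low in both groups were removed before ranking. A place near the bottom in Mock is thus largely set by the filter and does not measure how silent Mx2 was.

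Rsad2, the viperin gene, was counted 27 and 33 times in the Mock libraries and 108 and 161 times in the uniSTING ones. Its levels were 1.53 and 1.49 CPM in Mock and 5.76 and 6.47 CPM in uniSTING. The Mock libraries were nearly equal, and the lower uniSTING value was 3.76 times the higher Mock value. The mean went from 1.51 ± 0.0273 up to 6.12 ± 0.497 CPM (SD, n = 2), and the log2 fold change was 2.02 (SE 0.19, edgeR adjusted p = 5.97e-06), with a ratio of summed counts of 4.08 (3.08 to 5.49). Its fold change ranked 55 among the tested genes.

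Cmpk2 was the most abundant member in Mock and had the smallest fold change. Mock libraries held 40 and 45 counts of it against 105 and 120 in uniSTING, or 2.27 and 2.04 CPM against 5.60 and 4.82 CPM. Here too the groups were apart, the lower uniSTING value being 2.12 times the higher Mock value. The means of 2.15 ± 0.165 and 5.21 ± 0.554 CPM gave a log2 fold change of 1.27 (SE 0.19, edgeR adjusted p = 2.11e-04) and a ratio of summed counts of 2.41 (1.87 to 3.13), at rank 186 of the tested genes.

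**Figure D1:**
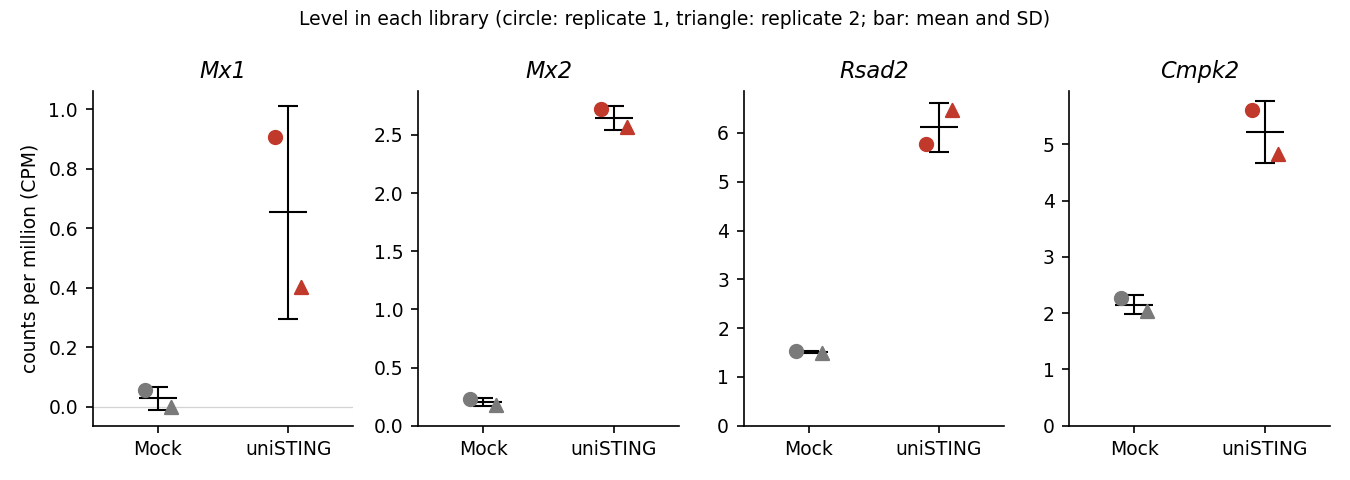
Level of each gene in each library in CPM (vertical axes differ and are linear), with grey points for Mock and red points for uniSTING, circles for replicate 1 and triangles for replicate 2, and a bar for the mean and SD of 2 libraries. In every panel both red points lie above both grey points; the uniSTING points of Mx1 lie at 0.907 and 0.402 CPM.

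**Figure D2:**
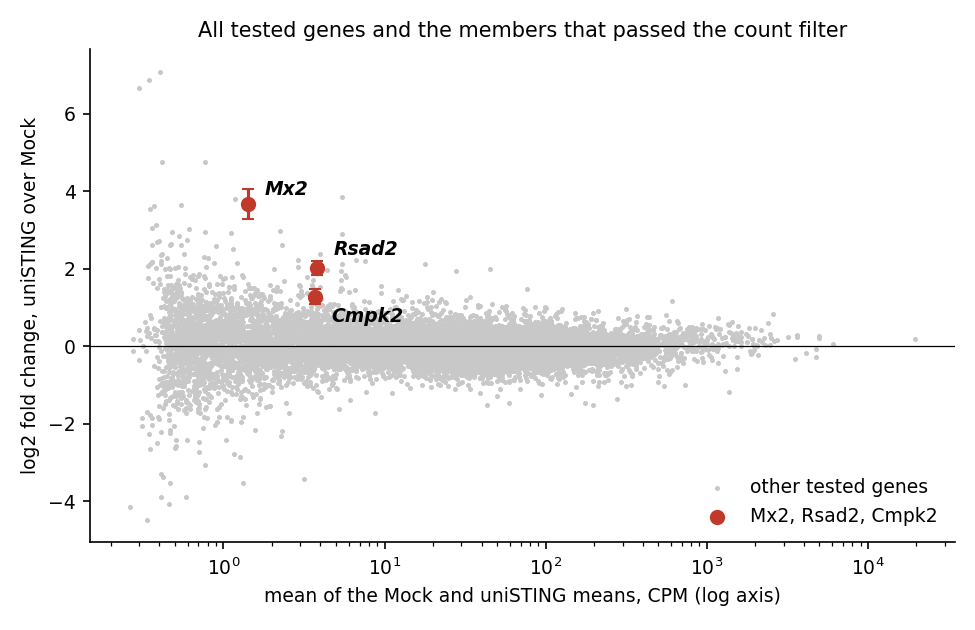
Log2 fold change of uniSTING over Mock against the mean level in CPM (log axis) for 12972 tested genes in grey, with Mx2, Rsad2 and Cmpk2 in red and their SE as bars; Mx1 is missing because it did not pass the count filter. Mx2 (3.67), Rsad2 (2.02) and Cmpk2 (1.27) lie on the low side of the abundance range and above the bulk of the grey points.

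Levels between genes were compared per kb of exon. In Mock the order was Cmpk2 at 0.517, Rsad2 at 0.349, Mx2 at 0.0564 and Mx1 at 0.00750 CPM per kb (means of 2 libraries). In uniSTING it was Rsad2 at 1.41, Cmpk2 at 1.25, Mx2 at 0.732 and Mx1 at 0.173 CPM per kb. Rsad2 and Cmpk2 did not differ beyond their spread in uniSTING, where the libraries read 1.33 and 1.49 for Rsad2 and 1.35 and 1.16 for Cmpk2, while in Mock the values of 0.353 and 0.344 for Rsad2 lay below the 0.545 and 0.489 of Cmpk2. Mx2 stayed below both and Mx1 below Mx2 in every library of either group. Against a median of 6.13 CPM per kb over all tested genes in Mock and 6.04 in uniSTING, all 4 remained rare transcripts after treatment.

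Rises were also compared between members inside each library. The ratio of Rsad2 to Cmpk2 per kb, which needs no scaling between libraries, was 0.648 and 0.704 in Mock libraries but 0.988 and 1.29 under uniSTING. Mx2 gained on both, with ratios to Rsad2 of 0.178 and 0.145 in Mock and 0.566 and 0.477 in uniSTING, and ratios to Cmpk2 of 0.115 and 0.102 against 0.559 and 0.614. In each of these 3 ratios the groups did not overlap, but an exact two-sided permutation test of 2 libraries against 2 cannot go below p = 0.333, which each ratio reached. The 95% counting intervals of the rise did not overlap between Mx2 and Rsad2 (6.42 to 31.0 and 3.08 to 5.49), and those of Rsad2 and Cmpk2 overlapped slightly (3.08 to 5.49 and 1.87 to 3.13), which is no test of their difference. For Mx1 and Mx2 the intervals overlap widely, and in uniSTING Mx2 had 51 counts to 17 of Mx1 in replicate 1 and 64 to 10 in replicate 2, so a difference between their rises was not detectable at this depth. Intervals and floors cover counting error only.

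**Figure D3:**
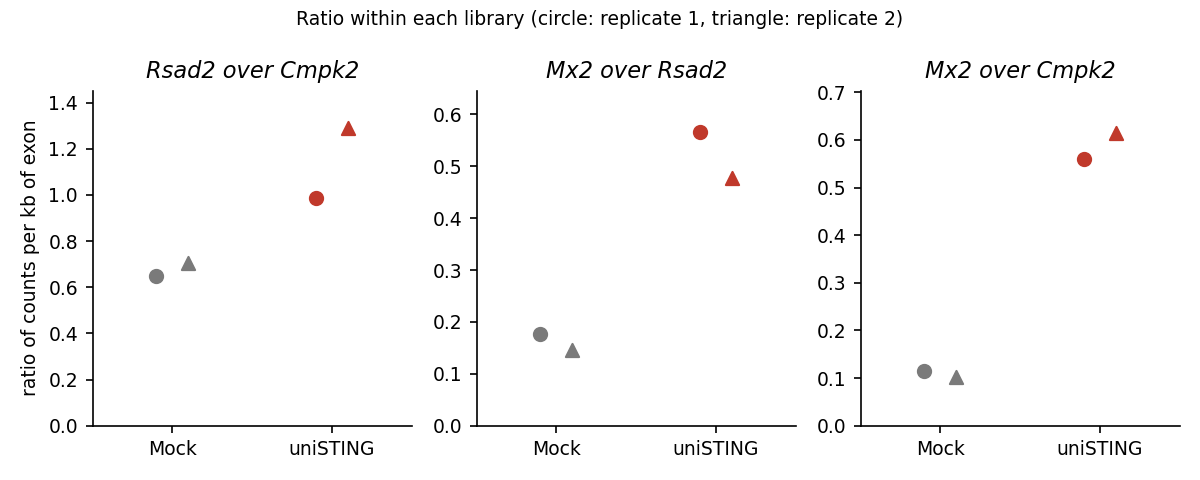
Ratio of counts per kb of exon between 2 members within each library (linear axes from 0), with circles for replicate 1 and triangles for replicate 2. The uniSTING points lie above the Mock points in all 3 panels, from 0.648 and 0.704 to 0.988 and 1.29 for Rsad2 over Cmpk2.

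The libraries held between 17502694 and 25071840 counts. Keratin and adhesion markers of an epithelial line were abundant (6 genes summing to between 4503 and 4665 CPM per library). Of 16 markers of leukocytes, endothelium and mesenchyme, 13 had a count somewhere, and their sum was 12.4 and 19.3 CPM in the replicate 1 libraries of Mock and uniSTING against 1.54 and 1.49 CPM in the replicate 2 libraries. Most of it came from Lyz2, a lysozyme gene of macrophages and granulocytes, at 8.79 and 15.5 CPM in replicate 1 and 0 in replicate 2, and Ptprc, which encodes the pan-leukocyte protein CD45, behaved likewise (0.454 and 1.01 CPM against 0). The endothelial genes Pecam1 (1.02 and 0.480 CPM against 0.136 and 0.121) and Cdh5 (0.567 and 0.427 against 0.0905 and 0.0402) were also higher in replicate 1 of Mock and uniSTING, while the macrophage receptor gene Csf1r was level, at 1.19 and 1.23 CPM in replicate 1 and 0.996 and 1.12 in replicate 2. Itgam and Siglech were among the markers with no count. The rises of Mx2 and Rsad2 were as large in the replicate 2 libraries alone, at 14.2-fold and 4.33-fold, as in the replicate 1 libraries, at 12.0-fold and 3.76-fold. Cmpk2 gave 2.37-fold and 2.47-fold. Mx1 rose from 0 to 10 counts in replicate 2, at least 2.96-fold against a floor of 3 counts, and had a ratio of 16.0 in replicate 1; the part of these markers in its higher replicate 1 value was not tested.

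Few genes around the members could be tested. Within 500 kb of the Mx pair the annotation lists 16 other genes, of which 7 had at least 10 counts and 4 could be tested, with 2 lower and 2 not passing, against 24.9% higher and 25.4% lower over all tested genes. Ripk4, a kinase gene of epithelia, was 1.24-fold lower (60.7 ± 0.836 in Mock, 48.9 ± 0.454 CPM in uniSTING; SE 0.05 on the log2 scale, adjusted p = 3.47e-04), and Prdm15, a zinc finger gene, fell by 0.31 on the log2 scale (SE 0.09, adjusted p = 0.0147), a call lost with the trend of counts with gene length removed (-0.09), with DESeq2 (adjusted p = 0.100), without Mock replicate 1 (0.0658) and without uniSTING replicate 2 (0.0823). C2cd2 and Zbtb21 had log2 fold changes of -0.26 and -0.05 and did not pass. Directly beside the pair, the protease gene Tmprss2, 3.78 kb from Mx2, summed to 16 counts under Mock against 13 under uniSTING. Bace2, another protease gene, 4.10 kb from Mx1, summed to 5 and 7 counts, all in replicate 1. Around Rsad2 and Cmpk2 the 12 other genes within 500 kb had no counts apart from 5 of Rnf144a, so none could be tested, and between the 2 start sites no gene is annotated.

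The other effectors of the interferon response gave the setting for these values. Of 61 interferon-stimulated effector genes other than the members, 56 were tested, of which 46 rose (21 of them by at least 2-fold), 3 fell and 7 did not pass, with a median log2 fold change of 0.67 against 0.006 over all tested genes. The shares called over all tested genes were 24.9% higher, 25.4% lower and 2.00% at least 2-fold higher. Among them 2 genes had a larger fold change than Mx2, 7 a larger one than Rsad2 and 14 a larger one than Cmpk2. Ifi44 rose 7.40-fold, Ifit1, which binds viral RNA, 4.62-fold, and Isg15, a ubiquitin-like modifier, 2.41-fold. With the length trend removed, the log2 fold change of Isg15 went from 1.27 to 0.98. Those of Ifit1 and Ifi44 went from 2.21 to 2.12 and from 2.89 to 2.96, and all 3 were still called. Usp18, the protease that removes ISG15, rose from 0.516 ± 0.153 to 3.99 ± 0.889 CPM.

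**Figure D4:**
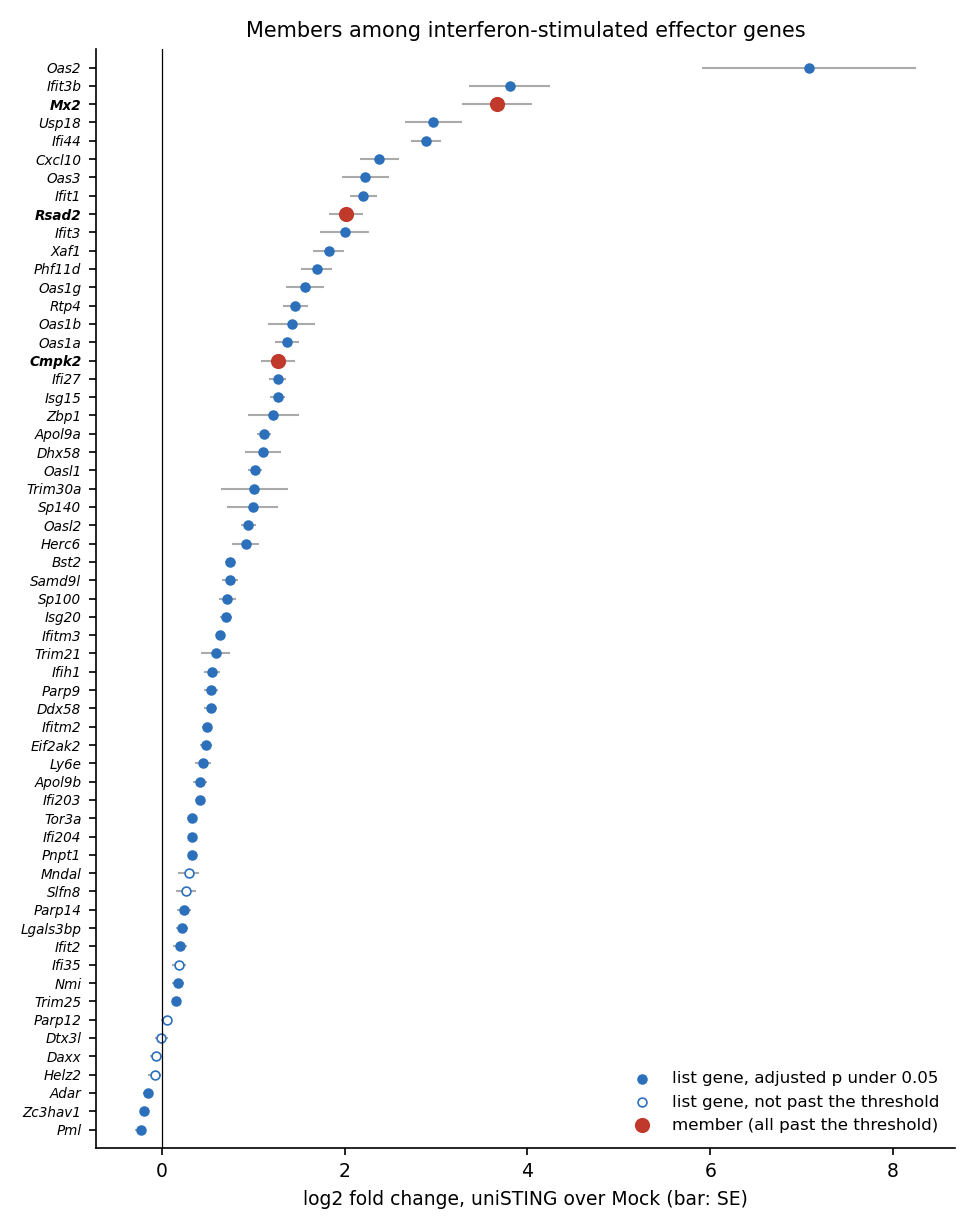
Log2 fold change of uniSTING over Mock with its SE for 56 tested interferon-stimulated effector genes (blue where past an adjusted p of 0.05, open where not) and for Mx2, Rsad2 and Cmpk2 (red), in order of size. Mx2 stands at position 3, Rsad2 at 9 and Cmpk2 at 17; Oas2 had no count in Mock, so its fitted value is no measure of its size.

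Interferon-inducible GTPases, the distant relatives of the Mx proteins that act on vacuoles of microbes, rose in 11 of 16 tested cases out of 20 listed, 8 of them by at least 2-fold, and the other 5 did not pass (median 0.91). Irgm2 rose 2.78-fold, Igtp 2.69-fold, Gbp4 2.49-fold and Gbp3 2.00-fold. Dynamin relatives that serve membrane traffic did not share that direction. Of 12 tested, 7 fell, 2 rose and 3 did not pass, with a median of -0.15. Over all tested genes, 24.9% were called higher, 25.4% lower and 2.00% at least 2-fold higher. Dnm1l, which divides mitochondria, fell from 142 ± 1.70 to 122 ± 1.65 CPM, Ehd2 fell 1.22-fold, and Atl2, an endoplasmic reticulum fusion GTPase, rose 1.33-fold. With the length trend removed, 4 of them fell and the median was -0.03.

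Of 19 tested genes that carry the interferon signal to these promoters, 6 rose, 5 fell and 8 did not pass (median 0.04), shares near those of all tested genes (24.9% higher and 25.4% lower). Irf9, which encodes a DNA-binding subunit of ISGF3, rose from 9.31 ± 1.05 to 20.5 ± 0.155 CPM, and Stat2 rose 1.40-fold (SE 0.08 on the log2 scale, adjusted p = 6.17e-04). Irf7, itself a target of ISGF3, rose 4.35-fold. Irf1, at 72.2 ± 2.39 and 73.6 ± 0.0611 CPM, and Sting1, at 19.6 ± 0.203 and 20.9 ± 1.25 CPM, did not pass. Jak1, the receptor kinase, fell 1.20-fold (log2 fold change -0.26, and -0.15 with the length trend removed, still called).

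Enzymes around the substrates of viperin and CMPK2 were called about as often as tested genes in general (50.2% in either direction). Of 29 tested genes of pyrimidine supply and nucleotide kinases, 10 rose, 4 fell and 15 did not pass, with a median of 0.08 and no rise of 2-fold or more. Cad, which starts pyrimidine synthesis, dropped 1.92-fold, from 386 ± 6.34 CPM in Mock to 201 ± 1.06 (SE 0.02 on the log2 scale, adjusted p = 2.76e-10). Cmpk1, the cytosolic counterpart of CMPK2, rose 1.22-fold, to 118 ± 0.405 CPM. Ctps, which makes CTP, the substrate of viperin, was at 226 ± 1.79 and 218 ± 6.74 CPM and did not pass, though 2 alternatives called it lower, removal of the length trend (log2 fold change -0.10, adjusted p = 0.0106) and omission of uniSTING replicate 2 (-0.09, adjusted p = 0.0233). Samhd1, which degrades deoxynucleotides, fell 1.25-fold (log2 fold change -0.32, and -0.16 with the length trend removed, still called).

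Among 13 genes for the iron-sulfur assembly of viperin and for proteins reported to bind it, 6 rose, 3 fell and 4 did not pass (median 0.06), against 24.9% higher and 25.4% lower over all tested genes. Ciao1, which hands the cluster to viperin, rose 1.28-fold, to 45.9 ± 0.956 CPM, and its partner gene Ciao2a rose 1.47-fold, while Mms19 of the same machinery fell 1.26-fold. Gbf1, a trafficking factor, fell 1.43-fold. With the length trend removed the log2 fold changes went from 0.56 to 0.33 for Ciao2a, from -0.33 to -0.13 for Mms19 and from -0.52 to -0.31 for Gbf1, all still called. Fdps, the farnesyl diphosphate synthase, rose 1.29-fold (adjusted p = 0.0434), which did not pass in DESeq2 (adjusted p = 0.179), nor when replicate 2 of Mock or of uniSTING was left out (0.283 and 0.244). Hadhb, of mitochondrial fatty acid oxidation, was at 78.7 ± 2.75 and 80.8 ± 2.04 CPM and did not pass, though it passed with the length trend removed (log2 fold change 0.13, adjusted p = 0.0198).

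The genes whose 4-library pattern lay nearest to each member were named by the root mean square difference of log2 CPM (prior count 2, each gene set to its Mock mean, over 4 libraries). Nearest to Mx2 was Ifit3b, counted 3 times in either Mock library and 44 and 51 times in uniSTING (difference 0.04), then Oas2 and Ano4 (0.09 and 0.14). Oas2 and Ano4 had no count in Mock, so their distance to Mx2 is set by the prior count, and their fitted log2 fold changes, 7.08 and 6.86, are far from the 3.67 of Mx2. For Rsad2 these were Smtnl2, with 25, 33, 104 and 146 counts in the same order of libraries (0.06), Ifit3, with 14, 19, 56 and 91 counts (0.08), and the predicted gene Gm5854 (0.13). Cmpk2 had Mss51, Cyp1b1 and H2-T24 nearest (0.06, 0.07 and 0.08); the rise of Mss51 was called at an adjusted p of 0.0145 and lost with DESeq2 (0.0921) and without Mock replicate 1, Mock replicate 2 or uniSTING replicate 2 (0.0600, 0.112 and 0.0691). Around Mx1 no gene came as close, the nearest being Tent5c (0.25), Cnih3 (0.29) and 9230116N13Rik (0.30). Ifit3 and Ifit3b are close copies of each other and H2-T24 belongs to a multigene family, so their counts are uncertain. With 4 libraries in 2 groups, a small difference mostly says that a gene rose by a like amount on this scale, and for genes of few counts the prior count enters it; of the 12 neighbours in pattern, Ifit3b, Oas2 and Ifit3 were in the list of interferon-stimulated effectors.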

How the data were processed

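Per the file headers, the authors counted reads per gene with featureCounts 2.0.1 (exons grouped by gene, paired-end mode, no strand option) on Ensembl 103 of GRCm39 from uniquely mapped alignments, and deposited raw counts per library; alignment was with HISAT2 (version not given), per the submitters' processing notes. Identifiers were given symbols from a table that matched 52093 of 53647 genes. Counts were tested with edgeR 4.0.16 (R 4.3.3): TMM scaling, default filter by group (minimum count 10, total 15), quasi-likelihood fit on the group, Benjamini-Hochberg adjustment over 12972 genes. SEs of log2 fold changes come from the F statistic. Intervals of ratios are exact 95% binomial. The libraries were kept as 2 per group, as labelled. Those of a group differed by more than counting noise (median-based variance ratio 1.47 in Mock and 1.50 in uniSTING). That excess does not tell separate cultures from technical preparations or lanes. The common coefficient of variation that edgeR fitted beyond counting noise was 3.15%. The headers do not say whether L in the alignment names means library or lane. The test was checked on simulated counts that gave every gene the same dispersion, without a replicate effect or a length trend. That check does not cover those features of the data. The alternatives were DESeq2 size factors, no filter, at least 1 CPM in 2 libraries, DESeq2 1.42.0, limma-voom (limma 3.58.1), a replicate block, removal of the trend of counts with gene length (lowess, span 0.3) and leaving out each library; the values by replicate number were added after seeing the data. The members and lists were chosen with earlier results of these data known. Named were the members, genes within 500 kb, the 3 nearest patterns, up to 4 genes per list by smallest p and a panel of 16 genes; some of these are not reported here. Promoter sequences are from RefSeq (GRCm38.p6), for 2 of the 4 members.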

Additional observations from a re-analysis of the deposited data

How the results depend on the processing

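Mx2, Rsad2 and Cmpk2 kept their direction and passed the threshold in each of 11 alternatives, with log2 fold changes of 3.50 to 3.82, 1.92 to 2.10 and 1.17 to 1.38 and edgeR, DESeq2 or limma adjusted p of at most 3.59e-04, 1.07e-04 and 0.00279. Between 4896 (DESeq2) and 6777 genes were called, against 6515. Mx1, not tested as reported (log2 ratio 4.62), was called without the count filter (4.36). Leaving out 1 library gave 3.36 to 6.82, called without Mock replicate 1 (where Mock holds no count, so that 6.82 is no measure of size) and without uniSTING replicate 2, not called without Mock replicate 2, and not tested without uniSTING replicate 1. The ratio of its summed counts, 24.6, became at least 4.56 without Mock replicate 1, 10.9 without Mock replicate 2, 16.0 without uniSTING replicate 1 and 36.0 without uniSTING replicate 2.

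With the replicate number as a block, 6777 genes were called, and Mx2, Rsad2 and Cmpk2 had log2 fold changes of 3.67, 2.02 and 1.27, with no call of a member changed. The labels do not say that equal numbers mark a shared batch. Replicate 1 minus replicate 2 differences in Mock and uniSTING correlated with Pearson r = 0.661 and Spearman rho = 0.00867 across 10836 genes, which are not independent; 54 genes were seen almost only in replicate 1, with 0 members among them.

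The median log2 fold change of the interferon-stimulated effectors (0.67) was 0.74 without the filter, 0.64 at 1 CPM in 2 libraries, 0.74 with DESeq2 and 0.60 with the length trend removed, and 0.66 to 0.75 without 1 library. That of the interferon-inducible GTPases (0.91) was 0.68 without the filter and with DESeq2. With the length trend removed, 4 rather than 7 dynamin relatives were lower (median -0.033), 3 rather than 5 signalling genes were lower (median 0.0046), and the medians were 0.048 for nucleotide supply and 0.13 for viperin partners. With DESeq2, 3 rather than 6 signalling genes were higher and 1 was lower, and 2 rather than 4 nucleotide supply genes were lower (median 0.080, and 0.097 with limma-voom). Without 1 library, 3 to 6 signalling genes were higher and 2 to 4 lower (median -0.013, without Mock replicate 1, to 0.076), and 2 to 4 nucleotide supply genes were lower (median 0.029 to 0.12). Uncalled genes changed sign: without 1 library, Irf1 spanned -0.013 to 0.060 and Hadhb -0.0034 to 0.073, both negative without Mock replicate 1, and Zbtb21 -0.14 to 0.023, positive without uniSTING replicate 1 and, at 0.028, with the length trend removed. The cause was not tested. Depth limits Mx1 and Mx2 in Mock, which rest on 1 and 8 counts.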
